A study of Homo sapiens with 6 samples.

Results

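The cytosolic ribosomal proteins are the proteins of the large and small subunits of the ribosome that translates cytoplasmic mRNAs. Their mRNAs were followed through 5 IGF2BP3 IR-PAR-CLIP libraries and 1 IgG library of HCT116 cells. The members were chosen by name: protein-coding genes of GENCODE release 44 whose symbol is RPL or RPS with a number, with at most 1 further letter A, X or L, and RPLP0, RPLP1, RPLP2 and RPSA. This gave 81 genes, 49 of the large and 32 of the small subunit, of 20046 protein-coding genes. Clusters that shared 1 nt or more with an exon of such a gene, in the same orientation, were taken as its clusters. In total, 76 of the 81 members had a cluster in at least 1 IGF2BP3 library.

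HCT116 is a human colorectal carcinoma line, here with the genotype Tet-OsTIR1-PURO and conditional expression of Tet-OsTIR1 in all 6 libraries. Cells were labeled with 100 µM 4-thiouridine (4sU) for 15 h and crosslinked at 365 nm. A crosslinked 4sU is read as C instead of T, and PARalyzer groups reads with such T-to-C conversions into clusters. The IGF2BP3 immunoprecipitates were digested with RNase I (0.05/0.05, 0.1/0.025 or 0.05/0.025 U/µL, in lysate/on beads) or RNase T1 (1/1 or 0.25/0.25 U/µL), and that of control IgG with RNase I (in lysate 0.1, on beads 0.025 U/µL). According to the study, the antibody also recognized some IGF2BP2, a paralog. Electroelution was used for RNase I at 0.05/0.05 and for RNase T1 at 1/1 U/µL, and crushed gel for the remaining IGF2BP3 libraries, so that gel extraction and RNase concentration cannot be told apart between the RNase T1 libraries, nor between RNase I 0.05/0.05 U/µL and the other RNase I libraries. There was 1 library per condition and no replicate. No test between conditions was therefore made, and every interval given covers counting error only.

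IGF2BP3 is an oncofetal RNA-binding protein with RRM and KH domains that is best known for binding 3′UTRs. Ribosomal protein mRNAs are among the most abundant mRNAs of growing cells, are short, and typically start with a 5′ terminal oligopyrimidine (TOP) tract through which LARP1 and mTOR signaling control their translation. Their genes often carry small nucleolar RNAs (snoRNAs) in introns and have left many processed pseudogenes, which are intronless copies of the mRNA elsewhere in the genome. Transcript abundance was not measured in these libraries, so that the cluster reads of a gene reflect its amount of mRNA as well as its crosslinking.

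Cluster reads summed to between 182448 (RNase T1 0.25/0.25 U/µL) and 2362467 (RNase I 0.05/0.05 U/µL) in the IGF2BP3 libraries, and to 324 with IgG. Levels are CPM, scaled to the sum of cluster reads of the library. Series of 5 values follow the order RNase I at 0.05/0.05, 0.1/0.025 and 0.05/0.025, then RNase T1 at 1/1 and 0.25/0.25 U/µL. Of the 5 epithelial markers KRT8, KRT18, EPCAM, CDH1 and VIL1, between 2 and 4 had a cluster in each IGF2BP3 library. None of the 25 IgG clusters overlapped a member or a processed pseudogene of a member. In the IGF2BP3 library with the same RNase I concentrations, 399 of 43385 clusters lay on members. At such a share 25 clusters are too few to show a difference between IgG and IGF2BP3 at members.

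To show what was bound, the stretches of member exons covered by a cluster in all 5 IGF2BP3 libraries were collected. There were 114 of them on 44 members, with a median length of 31.5 nt. Of these, 65 lay in coding sequences of 33 members, 46 in 3′UTRs of 18 members and 3 in 5′UTRs. For leading members, the stretch whose overlapping clusters had the highest mean CPM over the 5 libraries is shown by 30 nt of GRCh38. These CPM are of whole clusters, which can reach far beyond the stretch and count for several stretches. RPL23 and RPL30 are not shown. Each window was placed at the median of those cluster modes (the nucleotides with the strongest conversion signal) that lie inside the stretch. For even numbers the higher coordinate of the middle pair was taken. Where the stretch held no mode, its middle was used. Windows were kept within the exon and can reach beyond the stretch. Capitals mark IGF2BP-type tetramers, namely CATT, the similar words CAGT and then CATA, as well as TTAC and in addition TCAT. The G-rich tetramer GGGG was marked too. All were searched in the sense orientation of the mRNA only and can overlap each other.
RPL15 3′UTR: tatgagtataccaccaCATTgCATTtctgt
RPL23A 3′UTR: agCATTttgtcctcacacacccatctacta
RPS27L 3′UTR: agccttaTCATAaattcCATAattctaatt
RPS23 3′UTR: ctggtctCAGTtggTCATcctcaaacttgg
RPL13A 3′UTR: ggagccagaagactgattggagggccctat
RPL22 3′UTR: gcgacatctttctaagattctctgtgggaa
RPL10 coding sequence: ccccttccacgTCATccgcatcaacaagat
RPL28 coding sequence: ggcccgcaattccttccgctacaacggact
RPL14 coding sequence: ttgcactcaagtgaggagacaggccatgcc
RPLP0 coding sequence: agccaaggaagagtcggaggagtcggacga

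The RPL15 window is chr3:23920492-23920521 (+), the RPL23A window chr17:28724264-28724293 (+), the RPS27L window chr15:63153955-63153984 (−), the RPS23 window chr5:82274970-82274999 (−), the RPL13A window chr19:49492062-49492091 (+) and the RPL22 window chr1:6186252-6186281 (−). In coding sequences, the RPL10 window is chrX:154399888-154399917 (+), the RPL28 window chr19:55386587-55386616 (+), the RPL14 window chr3:40458659-40458688 (+) and the RPLP0 window chr12:120196801-120196830 (−). The mode of the RPL14 site was the same nucleotide, chr3:40458674, in all 5 libraries. At the RPL22 site the modes of 4 libraries fell inside the window and at the RPL10 site those of 3. The other windows shown held 2 modes or fewer. Over the 113 shared stretches with a full window, 24 of the 46 windows in 3′UTRs (52.2%) and 21 of the 65 in coding sequences (32.3%) held at least 1 of the 5 IGF2BP-type tetramers. Among all 30-nt windows of member exons the shares were 39.3% in 3′UTRs and 30.7% in coding sequences. The share was thus above that of member 3′UTRs at the sites in 3′UTRs and close to that of member coding sequences at the sites in coding sequences. RPL15 alone had 13 shared stretches, most of them in its 3′UTR, and the share without RPL15 was not computed. Many site windows were placed at T-to-C conversions, and all 5 tetramers contain T, so the site windows and all windows are not fully comparable. The clusters over the RPL15 stretch had 577, 487, 371, 157 and 247 CPM, those over the RPL10 stretch 142, 166, 186, 63.9 and 164 CPM and those over the RPL14 stretch 70.3, 64.7, 73.1, 19.9 and 38.4 CPM. In both RNase T1 libraries the clusters over another RPL15 stretch had more, 239 and 444 CPM. All windows counted here are not independent, since several lie within one gene and neighbouring ones overlap.

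Most members carried clusters in every condition. There were 76 of 81 members with a cluster with RNase I 0.05/0.05 U/µL, against a background of 43.7% of protein-coding genes. With RNase I 0.1/0.025 and 0.05/0.025 U/µL the counts were 73 and 75, against 32.0% and 30.3%. With RNase T1 1/1 and 0.25/0.25 U/µL they were 60 and 53, against 37.6% and 16.7%. The background includes genes that HCT116 cells may not express, which these data do not separate. Clusters were present in all 5 libraries for 52 members, in 4 for 9, in 3 for 12, in 2 for RPL34 and RPS10 and in 1 for RPL36.

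Member clusters took 1.35% of the cluster reads with RNase I 0.05/0.05 U/µL (95% Wilson interval 1.33% to 1.36%). The shares were 1.25% (1.22% to 1.27%) and 1.66% (1.63% to 1.69%) in the other RNase I libraries. With RNase T1 the shares were 0.613% (0.599% to 0.628%) at 1/1 and 1.01% (0.964% to 1.06%) at 0.25/0.25 U/µL. All 3 RNase I shares lay above both RNase T1 shares. The clusters of members numbered 600, 399, 403, 314 and 139. In the RNase I 0.05/0.05 U/µL library 47 of 49 large and 29 of 32 small subunit genes had a cluster, and their median levels over all members were 132 and 117 CPM.

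Targets were defined after the methods of the study as genes with a cluster above 10 CPM and above 0.5 conversion events per read. Among members with a cluster, 67 (88.2%) were targets with RNase I 0.05/0.05 U/µL, against 50.1% of all protein-coding genes with a cluster. The counts with RNase I 0.1/0.025 and 0.05/0.025 U/µL were 64 and 65, against backgrounds of 66.5% and 72.6%. With RNase T1 1/1 U/µL 39 of 60 members were targets (65.0%, background 52.2%). With RNase T1 0.25/0.25 U/µL 41 of 53 were targets (77.4%), below the background of 82.0%. In that library every member cluster exceeded 10 CPM, because this threshold corresponded to 1.82 reads, and only the conversion criterion separated members. Targets in all 5 libraries were 31 of the 76 members with a cluster (40.8%), compared with 1986 of 9353 protein-coding genes (21.2%).

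**Figure D1:**
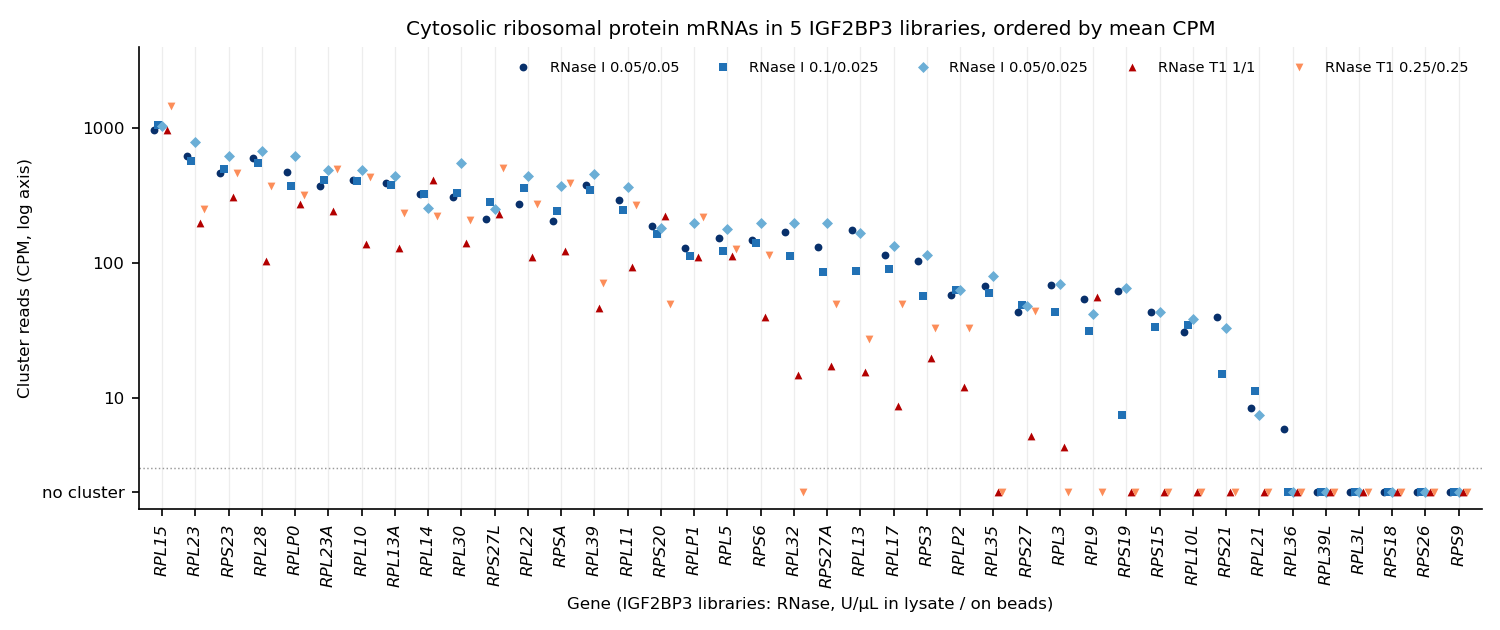
Cluster reads of 40 of the 81 members, selected from those named in the text, in the 5 IGF2BP3 libraries, in CPM on a log axis, ordered by the mean over the libraries. Each point is 1 library, and points below the dotted line stand for no cluster. RPL15 is highest in all 5 libraries, the RNase T1 1/1 points (dark red) lie below the RNase I points for most genes shown, and 5 members have no cluster.

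RPL15, a large subunit protein, had the most reads of all members in every IGF2BP3 library. It lies on chr3:23916591-23924374 (+). Its levels were 974, 1049, 1038, 976 and 1452 CPM, which made up 7.23% of member reads with RNase I 0.05/0.05 and 15.9% with RNase T1 1/1 U/µL. Among protein-coding genes it ranked between 79 and 92. Its level therefore differed little between the enzymes in the electroeluted pair and was highest with RNase T1 0.25/0.25 U/µL.

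The clusters of RPL15 lay mostly in its 3′UTR, which is 1488 nt long in the canonical transcript, compared with a median of 136 nt over the members. Of 2301 reads with RNase I 0.05/0.05 U/µL, 1663 lay in the 3′UTR, 477 in a cluster over the stop codon and 74 in the coding sequence. With RNase T1 1/1 U/µL, 1072 of 1129 reads lay in the 3′UTR. RPL15 had 13 stretches shared by all 5 libraries, the most of any member, and 12 of them were in the 3′UTR. Some of these 3′UTR sites carried several tetramers, and 3 are shown from 5′ to 3′.
RPL15 proximal site: aggaCAGTCATgtctgcTTACaggtgttat
RPL15 middle site: ctaattgtgaTCATTatgaatcccttCAGT
RPL15 distal site: aagtacTCATAgcaagtTCATAaaagttct

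The proximal site is chr3:23919543-23919572, the middle site chr3:23920229-23920258 and the distal site chr3:23920711-23920740, all on the plus strand. With RNase T1 0.25/0.25 U/µL the clusters over these stretches had 263, 93.2 and 444 CPM, and with RNase T1 1/1 U/µL 156, 10.4 and 239 CPM. With RNase I 0.05/0.05 U/µL the middle and distal sites lay within 1 cluster of 577 CPM. In the other 2 RNase I libraries and in both RNase T1 libraries they lay in separate clusters.

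**Figure D2:**
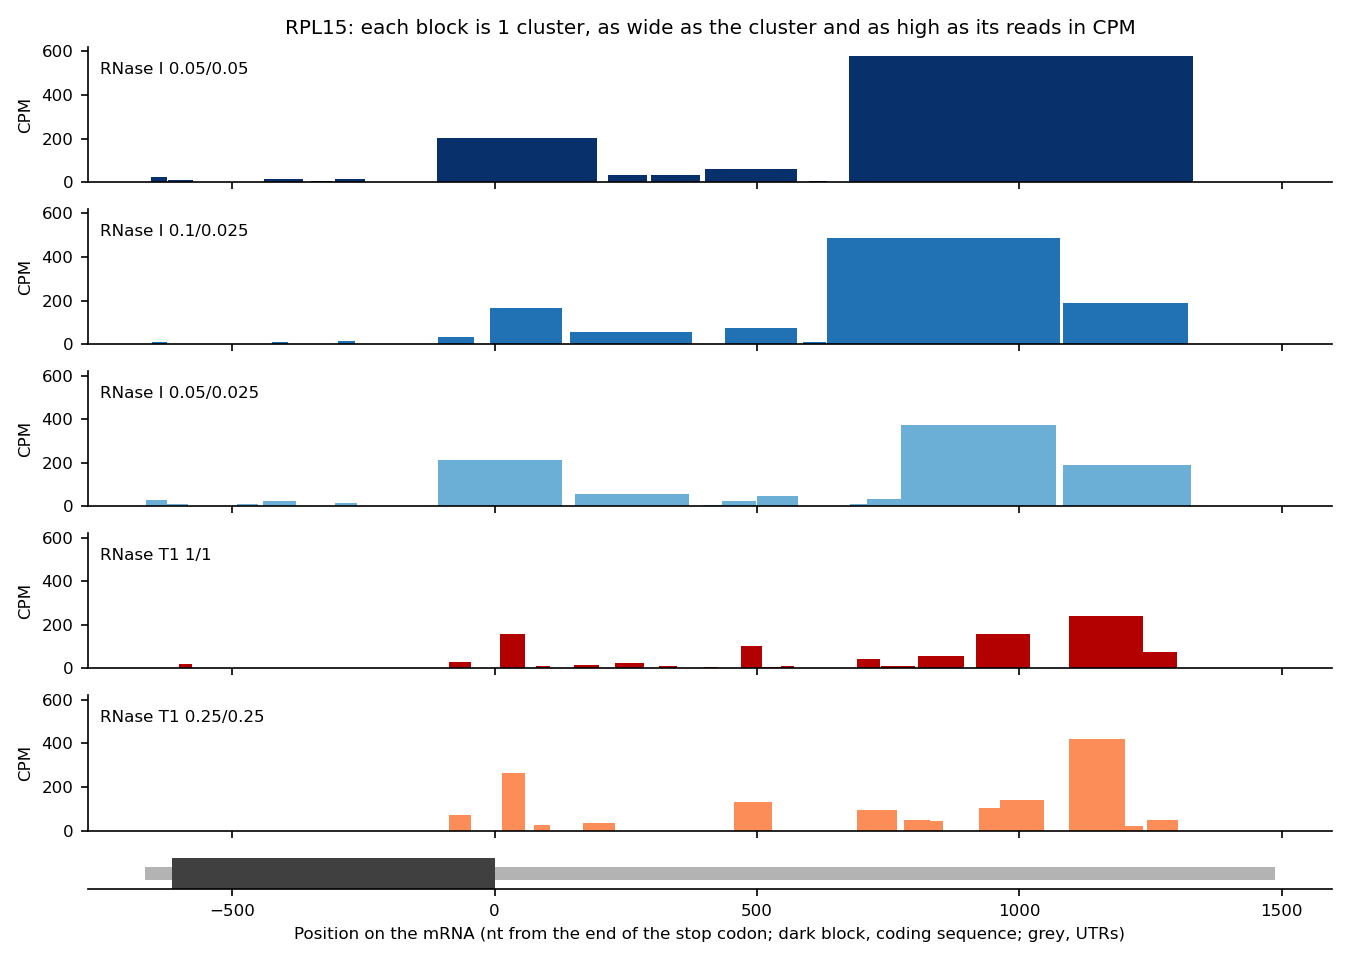
Clusters on the RPL15 mRNA in the 5 IGF2BP3 libraries; the x axis is the distance in nt from the end of the stop codon, the y axis the cluster reads in CPM, and each block is 1 cluster. In the distal part of the 3′UTR, RNase I gave a few broad clusters and RNase T1 several narrow ones.

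Next to RPL15, the members with the highest mean levels were RPL23 (487 CPM), RPS23 (471), RPL28 (461), RPLP0 (411), RPL23A (403), RPL10 (377), RPL13A (315), RPL14 (308), RPL30 (308), RPS27L (298) and RPL22 (293). They belong to different parts of the ribosome. RPS23 lies at the decoding center, RPL10 at the subunit interface near the peptidyl transferase center and RPLP0 at the base of the stalk that recruits translational GTPases. The 10 highest members took 37.3% of member reads with RNase I 0.05/0.05 and 53.5% with RNase T1 1/1 U/µL. The order of members was similar between libraries, with a Spearman correlation of 0.97 between the RNase I 0.05/0.05 and 0.1/0.025 U/µL libraries (n = 76 members) and 0.79 between the RNase T1 libraries (n = 61). These correlations are across genes, which share their abundance in all libraries.

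The stalk proteins differed in level. RPLP0 had 472, 371, 623, 274 and 318 CPM. RPLP1 had 130, 112, 200, 111 and 219 CPM, and RPLP2 58.0, 63.5, 62.6, 12.1 and 32.9 CPM. RPLP0 was above RPLP1 and RPLP1 above RPLP2 in every library. Their canonical mRNAs differ in length, and these sums are not divided by length.

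RPL5 and RPL11 form the 5S RNP with 5S rRNA and bind MDM2 when ribosome assembly is disturbed. RPL5 had 153, 122, 179, 113 and 126 CPM. RPL11 had 295, 248, 365, 94.2 and 269 CPM. Both were targets in all 5 libraries, and RPL11 was the higher except with RNase T1 1/1 U/µL.

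Among small subunit proteins, RPS6, the substrate of S6 kinase, had between 39.8 and 200 CPM, and RPSA, which is also known as laminin receptor precursor, had between 124 and 395 CPM. Both were targets in all 5 libraries. RPS3, which lies at the mRNA entry site, had 103, 57.3, 115, 19.9 and 32.9 CPM and was a target in 3 libraries. RPS27A, which is made as a fusion with ubiquitin, had between 17.3 and 197 CPM and was a target in 4 libraries. RPS19, which is mutated in Diamond-Blackfan anemia, had 61.8, 7.47 and 65.6 CPM with RNase I and no cluster with RNase T1.

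Paralogs are members with a close relative elsewhere in the set. RPS27L, a p53-inducible paralog of RPS27, had 212, 283, 253, 230 and 510 CPM, compared with 43.6, 48.5, 47.7, 5.18 and 43.8 CPM for RPS27. RPS27L was higher than RPS27 in each library. These sums are not divided by length, and the canonical exons held 5994 windows of 30 nt in RPS27L but 236 in RPS27. Of these windows, 26.2% in RPS27L and 93.6% in RPS27 had an identical copy elsewhere on the chromosomes. The sums therefore do not show which of the 2 mRNAs was more strongly bound. RPL10L, a testis-restricted retrogene of RPL10, had 30.9, 34.8 and 38.8 CPM with RNase I and no cluster with RNase T1. The RPL10L reads lay in 1 cluster per RNase I library, which covered between 6.35% and 8.03% of its exon. In RPL10L, 5.25% of exonic 30-nt windows had an identical copy elsewhere on the chromosomes. Windows that match RPL10 with mismatches were not counted, and whether these reads came from RPL10 mRNA was not tested. RPL3L, which is restricted to heart and skeletal muscle, and RPL39L, which is best known from testis, had no cluster in any library.

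RPS9, RPS18 and RPS26, which are general components of the small subunit, also had no cluster in any library. All exonic 30-nt windows of RPS9 and RPS18 occurred identically on contigs of the GRCh38 FASTA outside the chromosomes, as did 43.1% of those of RPS26. The same held for 91.5% of the windows of RPL9, which had clusters in 4 libraries. Whether the alignment used these contigs and how it treated reads with several equal matches is not given in the sources used here, and their part in the missing clusters was not tested.

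The reads of members lay in the coding sequence to a larger share than those of other genes. Clusters were placed on the canonical transcript as 5′UTR, over the start codon, coding sequence, over the stop codon, 3′UTR or other exon. Coding sequences held 47.8%, 47.1%, 51.7%, 34.2% and 44.4% of member reads in the 5 libraries, compared with 18.1%, 16.4%, 17.4%, 11.6% and 11.5% for all other protein-coding genes. A cluster on exons of several genes was counted here for each of them. In contrast, 3′UTRs held 21.2%, 27.8%, 19.3%, 42.0% and 39.0% of member reads and between 69.3% and 84.5% of those of other genes. Clusters over the stop codon added 17.3%, 14.7%, 17.7%, 9.77% and 10.4% of member reads, and clusters over the start codon between 0% and 7.37%.

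Members have short 3′UTRs, and therefore the reads were also divided by the summed length of each region, with clusters placed by their midpoint. With RNase I 0.05/0.05 U/µL members had 186 CPM per kb of coding sequence and 62.7 CPM per kb of 3′UTR, a ratio of 2.97. The ratio was 2.37 and 3.03 in the other RNase I libraries, 1.26 with RNase T1 1/1 and 1.68 with RNase T1 0.25/0.25 U/µL. For all other protein-coding genes it was between 0.135 and 0.243. The coding sequence of members was therefore denser in reads than their 3′UTR in each IGF2BP3 library, and the reverse held for the other genes. The canonical 3′UTRs of some members are long isoforms, such as that of RPL37 with 7242 nt, which lowers their density.

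Mitochondrial ribosomal proteins, which are encoded in the nucleus and build the ribosome of mitochondria, differed from the cytosolic ones. Between 73.9% and 91.0% of the reads of these 78 genes lay in 3′UTRs and between 4.80% and 9.02% in coding sequences. The 20 other TOP mRNAs, among them EEF1A1, EEF2 and PABPC1, had between 44.2% and 66.2% of their reads in coding sequences and between 9.59% and 20.1% in 3′UTRs. As in members, their coding sequence was denser in reads than their 3′UTR. The density ratios of these TOP mRNAs were 2.24, 2.50, 2.94, 1.09 and 2.17, against 2.97, 2.37, 3.03, 1.26 and 1.68 for members. EEF2 and PABPC1 alone held between 63.5% and 77.4% of the reads of this list. Without them, the other 18 TOP mRNAs had between 39.7% and 53.6% of their reads in coding sequences and between 26.0% and 50.9% in 3′UTRs. In RefSeq sequences of GRCh38 around the start site, 42 of 64 matched members (65.6%) began with C followed by at least 5 pyrimidines. The same held for 11 of 14 matched other TOP mRNAs, for 7.25% of 69 matched mitochondrial ribosomal protein genes and for 4.65% of 15345 protein-coding genes.

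**Figure D3:**
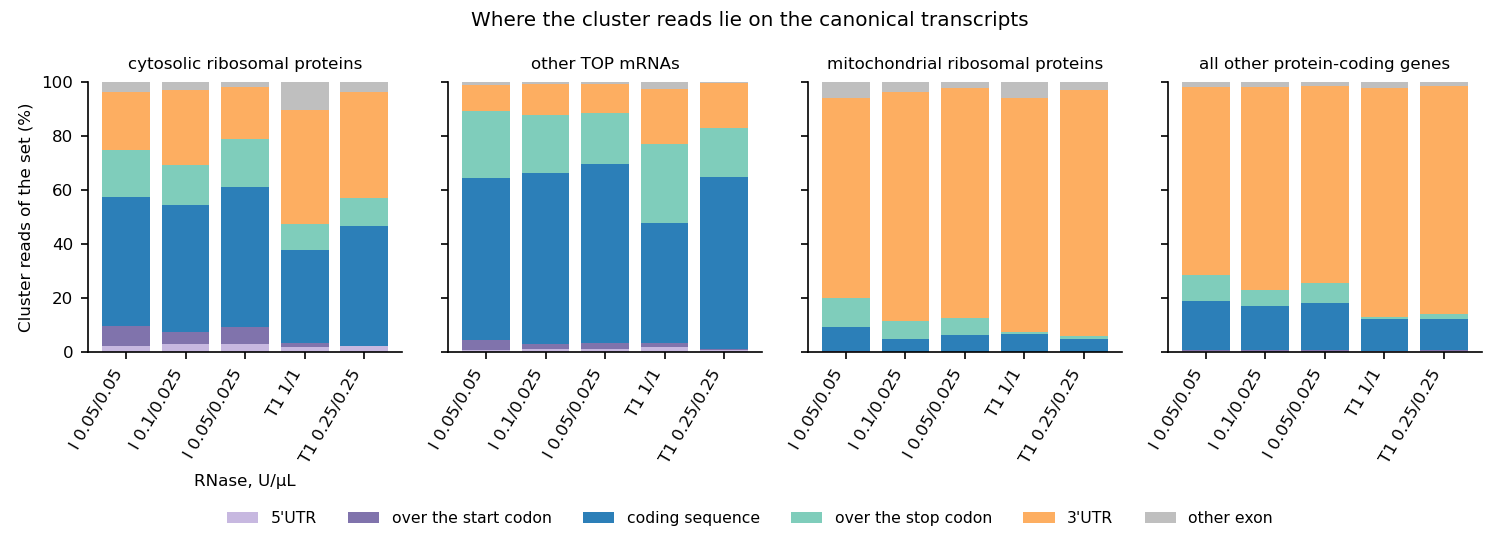
Share of cluster reads in each region of the canonical transcript, in percent, for the 4 gene sets and the 5 IGF2BP3 libraries. The coding sequence (blue) takes 34.2% to 51.7% in cytosolic ribosomal protein mRNAs, and the 3′UTR (orange) takes over 69% in the mitochondrial ribosomal protein mRNAs and in the other genes.

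More than 50% of the reads lay in the coding sequence in 45 of 76 members with RNase I 0.05/0.05 U/µL (59.2%), compared with 16.5% of other genes. The counts were 43 of 73 and 47 of 75 in the other RNase I libraries, 31 of 60 with RNase T1 1/1 and 30 of 53 with RNase T1 0.25/0.25 U/µL, against 14.9%, 15.2%, 12.6% and 9.04% of other genes. These counts depended on the annotation. When all annotated transcripts were used and the 3′UTR was given precedence, they were 35 of 76, 31 of 73 and 36 of 75 with RNase I. With RNase T1 they were then 20 of 60 and 19 of 53. The share of other genes was not computed at this setting. The members were not uniform. With RNase I 0.05/0.05 U/µL the 3′UTR held most reads in 7 members, namely RPL13, RPL13A, RPL15, RPL22, RPL39, RPS23 and RPS28. A cluster over the stop codon did so in RPL19, RPL23A, RPS15, RPS27A and RPS27L, and a cluster over the start codon in RPL21, RPL34, RPL36, RPL41 and RPLP1.

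RPL23 and RPLP0 are examples with reads mostly in the coding sequence. Of 1464 RPL23 reads with RNase I 0.05/0.05 U/µL, 758 lay in the coding sequence, 405 in clusters over the start codon and 102 in the 3′UTR. Of 1114 RPLP0 reads, 817 lay in the coding sequence and 248 over the stop codon. RPL13A showed the opposite, with 822 of 922 reads in the 3′UTR and 88 in the coding sequence. RPS27L changed its class with the enzyme, from 431 of 501 reads over the stop codon with RNase I 0.05/0.05 to 259 of 266 in the 3′UTR with RNase T1 1/1 U/µL. The RPS27L sequence shown above lies under both the RNase I cluster over the stop codon and the RNase T1 cluster in the 3′UTR.

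Within the coding sequence the reads of members were spread over all parts. With RNase I 0.05/0.05 U/µL 5 equal parts of the coding sequence, from the start codon on, held 18.6%, 24.5%, 15.8%, 18.2% and 22.9% of the reads. For all other protein-coding genes the shares were 11.4%, 17.7%, 22.4%, 23.0% and 25.4%. In that library the first part held the smallest share for the other genes, but not for members. The widest spread among members was with RNase T1 1/1 U/µL, from 13.6% in the fourth part to 25.6% in the last. Over the 81 members the mean level had a Spearman correlation of 0.35 with 3′UTR length and of 0.02 with coding sequence length.

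Except for CAGT, the IGF2BP-type tetramers occurred in fewer of the member clusters than of all clusters in each of the 5 IGF2BP3 libraries. CATT occurred in 29.7% of the 600 member clusters and in 38.5% of the 90999 clusters of the RNase I 0.05/0.05 U/µL library. CATA occurred in 15.3% and 22.6%, TTAC in 17.8% and 25.2%, and TCAT in 29.5% and 36.1%. CAGT occurred in 30.5% and 33.3% there, but was more frequent in member clusters with RNase T1 1/1 U/µL, with 3.55 against 3.22 per kb of cluster. With RNase T1 0.25/0.25 U/µL it had 4.35 and 4.74 per kb. The G-rich GGGG occurred in 15.5% of the member clusters and in 11.7% of all clusters of the RNase I 0.05/0.05 U/µL library. Per kb of cluster the difference there was small, 2.68 against 2.54, with 2.65 in clusters on other protein-coding exons. In the remaining libraries, in the order used above, GGGG had 2.92, 2.78, 2.19 and 2.55 per kb in member clusters. All clusters had 2.05, 1.90, 1.80 and 1.26 per kb. Member clusters of the RNase I 0.05/0.05 U/µL library had a median length of 62 nt, against 54 nt over all its clusters. They held 26.0% T and 23.6% G, compared with 31.0% T and 19.0% G over all clusters.

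The enzymes were compared within each way of gel extraction, RNase I 0.05/0.05 against RNase T1 1/1 (both electroeluted) and RNase I 0.05/0.025 against RNase T1 0.25/0.25 U/µL (both from crushed gel). In both pairs most members had a higher level with RNase I. In the electroeluted pair, 55 of 74 members with at least 20 reads in both libraries together were at least 2-fold higher with RNase I, against a background of 24.7% of protein-coding genes. None was at least 2-fold higher with RNase T1, against 15.6%. In the pair from crushed gel 34 of 67 members were at least 2-fold higher with RNase I, against 35.7%, and 1, RPS27L, was at least 2-fold higher with RNase T1, against 7.67%. In each pair, 14 of the members at least 2-fold higher with RNase I had no cluster with RNase T1, thus 14 of 55 and 14 of 34. Among all other protein-coding genes these were 550 of 1761 in the electroeluted pair and 890 of 1371 in the other. The share without an RNase T1 cluster was thus lower for members than for other genes in both pairs.

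The median log2 ratio of RNase I over RNase T1, with 0.5 reads added, was 1.82 for members and 0.08 for all other protein-coding genes in the electroeluted pair. In the pair from crushed gel it was 1.01 and 0.36. Among genes with reads in both libraries the medians were 1.60 (60 members) and −0.02 in the electroeluted pair, and 0.83 (53 members) and 0.04 in the other. Over all genes compared, with 0.5 reads added, mitochondrial ribosomal proteins had medians of 0.62 and 0.40, and the other TOP mRNAs 0.60 and 0.22. Among genes with reads in both libraries the medians were 0.39 and 0.13 for mitochondrial ribosomal proteins. Those of the other TOP mRNAs were again 0.60 and 0.22. The median of the members was thus the highest of the 4 gene sets in both pairs.

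**Figure D4:**
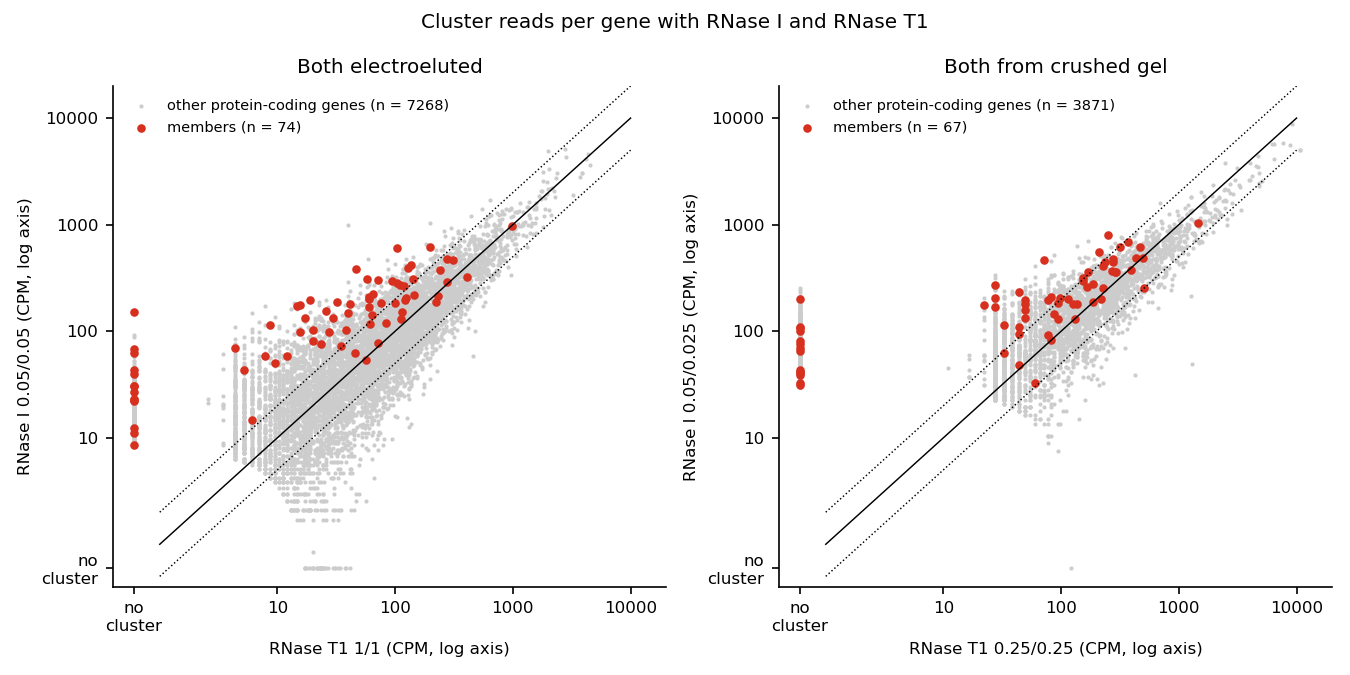
Cluster reads per gene in CPM with RNase T1 (x, log axis) and RNase I (y, log axis) for the electroeluted pair and the pair from crushed gel; each point is a gene with at least 20 reads in both libraries together, the solid line marks equality and the dotted lines 2-fold differences. The 74 and 67 members (red) lie mostly above the solid line, and those at the left edge have no RNase T1 cluster.

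Among members with reads in both libraries, RPL3 differed most in the electroeluted pair, with 69.0 CPM with RNase I and 4.32 CPM with RNase T1, a 16.0-fold difference (95% interval 6.70 to 49.8). RPL17 (13.3-fold, 7.13 to 28.1), RPL32 (11.6-fold, 7.18 to 20.2) and RPL13 (11.4-fold, 7.11 to 19.4) followed. In the pair from crushed gel RPL13 was 6.09-fold (2.54 to 19.1) higher with RNase I. RPL3 and RPL32 had no cluster with RNase T1 0.25/0.25 U/µL, so no fold is given. RPL17 was 2.69-fold higher (1.36 to 6.07). The 10 and 9 RNase T1 reads of RPL17 lay in exons outside its canonical transcript.

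RPL35, RPS15, RPS19 and RPS21 had between 39.8 and 67.7 CPM with RNase I 0.05/0.05 U/µL and no cluster with RNase T1 at either concentration. A gene without a cluster may still have had reads, since only called clusters were deposited.

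At the other end, RPL14 was 1.27-fold higher (1.13 to 1.43) and RPS20 1.18-fold higher (1.01 to 1.38) with RNase T1 1/1 U/µL than with RNase I 0.05/0.05 U/µL. RPL15, RPL9 and RPS27L had ratios of 0.998 (0.929 to 1.07), 0.957 (0.704 to 1.31) and 0.923 (0.794 to 1.07) of RNase I over RNase T1, each with an interval that includes 1. In the pair from crushed gel, RPL15 was 1.40-fold higher (1.21 to 1.61) and RPS27L 2.01-fold higher (1.55 to 2.60) with RNase T1. The others did not keep this direction there. RPS20 was 3.66-fold higher (1.86 to 8.19) with RNase I, RPL14 had a ratio of RNase I over RNase T1 of 1.13 (0.803 to 1.64), and RPL9 had 28 reads with RNase I and no cluster with RNase T1. All 258 and 9 RNase T1 reads of RPS20 lay in exons outside its canonical transcript, compared with 262 of 446 reads with RNase I 0.05/0.05 U/µL. On the canonical RPS20 mRNA there was thus no RNase T1 cluster.

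The enzymes were also compared by region of the transcript, with each cluster counted once. In the electroeluted pair the summed reads of members in coding sequences were 3.08-fold higher in CPM with RNase I, 6439 against 2094 CPM. In 3′UTRs they were 1.11-fold higher, 2854 against 2574 CPM. For all other protein-coding genes the corresponding ratios were 1.54 in coding sequences and 0.825 in 3′UTRs. In the pair from crushed gel the ratios of members were 1.92 in coding sequences and 0.817 in 3′UTRs, and those of other genes 1.49 and 0.859. Without RPL15 the 3′UTR ratios of members were 1.30 and 0.970. Clusters over the start codon of members were 9.57-fold higher with RNase I in the electroeluted pair, compared with 5.44-fold for other genes, and absent with RNase T1 0.25/0.25 U/µL. Over the stop codon the ratios were 3.89 for members and 10.2 for other genes in the electroeluted pair, and 2.81 and 3.59 in the other. Clusters on members had a median length of 37 nt with RNase T1 and 62 nt with RNase I in the electroeluted pair, and a shorter cluster has fewer positions at which it covers a start or stop codon, so that the region of a cluster depends on the enzyme. With clusters placed by their midpoint, the ratios of members were 3.30 in coding sequences and 1.40 in 3′UTRs in the electroeluted pair, and 2.03 and 1.12 in the pair from crushed gel, where the 3′UTR ratio thus changed direction. Those of other genes were 1.61 and 0.919 in the electroeluted pair, and 1.54 and 0.915 in the other. These ratios compare sums over clusters that were called separately in each library.

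Counted by gene, 57 of 69 members with at least 20 reads in the coding sequence (82.6%) were at least 2-fold higher there with RNase I in the electroeluted pair, compared with 47.2% of 2848 other genes. In the pair from crushed gel the share was 28 of 55 members (50.9%), compared with 55.3% of 931 other genes, so that the share of members was not above that of other genes at this depth. In 3′UTRs, 13 of 25 members (52%) were at least 2-fold higher with RNase I and 4 (16%) with RNase T1 in the electroeluted pair, compared with 19.7% and 23.8% of 6334 other genes. The counts in the pair from crushed gel were 5 and 3 of 15 members, compared with 30.2% and 12.8% of 3318 other genes.

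RNase T1 cuts after G, and member clusters held more G than clusters overall with both enzymes. With RNase T1 1/1 U/µL the G content was 18.8% in member clusters and 13.4% in clusters on other protein-coding exons, compared with 23.6% and 19.2% with RNase I 0.05/0.05 U/µL. The part of G content in the difference between the enzymes was not tested.

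The coding sequences of members have many near-identical copies. GENCODE lists 1512 processed pseudogenes named after 77 of the members. Of all 30-nt windows in member coding sequences, 66.1% had an identical copy elsewhere on the chromosomes and 86.6% matched a processed pseudogene of the same gene with at most 3 mismatches, the number allowed in the alignment. In 3′UTRs the shares were 18.3% and 0.663%. Over all exonic windows, 34.1% had an identical copy, compared with 9.83% for mitochondrial ribosomal protein genes. Within member clusters the share with an identical copy was between 33.0% and 41.1% in the 5 libraries.

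Processed pseudogenes of members also carried clusters. With RNase I 0.05/0.05 U/µL there were 520 such clusters on 269 pseudogenes of 69 members, with 15981 reads or 50.2 for each 100 reads on the members themselves. The ratio was 42.7 and 48.1 in the other RNase I libraries, and 26.1 and 24.9 with RNase T1. RPLP0P6 had the most, with 890 reads with RNase I 0.05/0.05 and 314 with RNase T1 1/1 U/µL. RPL10P16 (605 and 107 reads) and RPL10P9 (591 and 31 reads), copies of RPL10, came next.

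For 429 of the 520 pseudogene clusters a 30-nt window at the mode was placed on the mRNA of the parent gene with at most 3 mismatches, and 316 of these matched without mismatch. In 153 of the 429 (35.7%, 95% Wilson interval 31.3% to 40.3%) the window crossed an exon junction of the parent mRNA. Among all 30-nt windows of member coding sequences 21.2% cross a junction. A read over a junction is contiguous in a processed pseudogene and split in the parent gene. On the member genes, the 10 nt at each end of internal exons of at least 60 nt were covered less than the rest, 35.3% against 58.1% with RNase I 0.05/0.05 U/µL. In mitochondrial ribosomal protein genes the values were 3.25% and 10.4%. Reads of a member mRNA and of an expressed pseudogene cannot be told apart where the sequences are identical, so the coding sequence values of members are uncertain by the amount that was placed on pseudogenes or left unplaced.

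**Figure D5:**
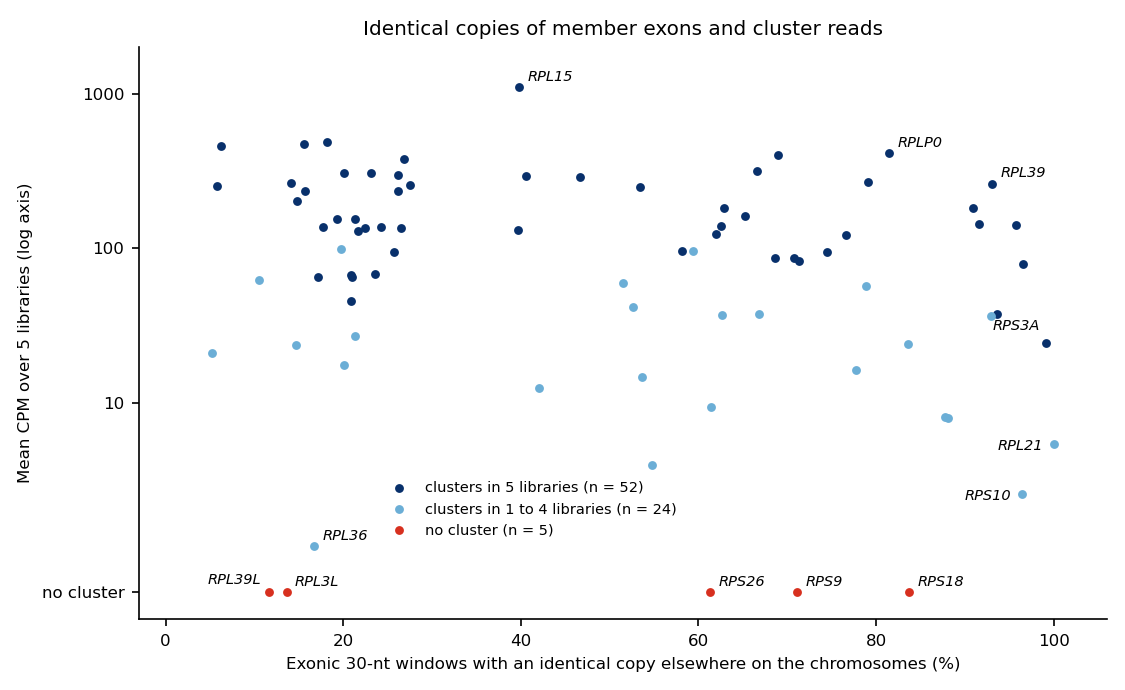
Share of the exonic 30-nt windows of each member with an identical copy elsewhere on the chromosomes (x, in percent) and mean CPM over the 5 IGF2BP3 libraries (y, log axis); each point is a member, colored by the number of libraries with a cluster. Members with clusters in all 5 libraries range from under 6% to over 99% identical windows, and RPL21 and RPS10, with 100% and 96.4%, have low levels.

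Members with clusters in all 5 libraries had a median of 33.6% of windows with an identical copy (range 5.78% to 99.1%), compared with 59.4% for those with clusters in 4 libraries and 54.8% for those with clusters in 1 to 3. All windows of RPL21 had an identical copy, and its levels were 8.47, 11.2 and 7.45 CPM with RNase I with no cluster with RNase T1. RPLP0 and RPL39 had high levels although 81.4% and 93.1% of their windows were not unique. Over the 81 members the Spearman correlation of this share with the mean level was −0.18. The part of such copies in the level of a single member was not tested.

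Other RNAs of these genes gave few clusters. Of 60 snoRNAs inside introns of 28 members, 4 had a cluster with RNase I 0.05/0.05 U/µL (SNORD36A, SNORD43, SNORD58B and SNORD58C), 1 and 3 in the other RNase I libraries and none with RNase T1. Clusters in introns of members numbered 19 with RNase I 0.05/0.05 U/µL with 226 reads. Clusters that also overlapped an exon of another gene on the same strand held between 2.17% and 5.73% of member reads. They included clusters of RPL17 and RPL26 in all 5 libraries and of RPS15A and RPS29 in 4.

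Ribosomal proteins with names outside the rule were also bound. RACK1, a small subunit protein with a signaling role, had 572, 487, 668, 224 and 532 CPM and was a target in all 5 libraries, as was RPL7L1, a ribosome biogenesis factor, with between 181 and 441 CPM. FAU, the fusion of a ubiquitin-like protein with a small subunit protein, had at most 13.5 CPM and was a target in no library. RPL22L1 had between 15.6 and 97.4 CPM, RPL26L1 a cluster in 1 library and RPL36AL in none.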

How the data were processed

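The deposited clusters of 6 IR-PAR-CLIP libraries were used, 1 per condition. The authors used UMI-tools 1.1.1 for deduplication, Trimmomatic 0.30 (read lengths 18 to 45 nt), Bowtie 0.12.7 against GRCh38 (up to 3 mismatches) and PARalyzer, run per library. For each cluster the deposited values are counts of reads, of conversions and of non-conversions, not normalized. The deposited mode score, a fraction, was not used. All 244645 cluster sequences were identical to GRCh38. The treatment of reads with several matches is not given in the sources used here.

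Clusters were assigned to GENCODE release 44 exons with Python 3.11.15, numpy 2.4.6, pandas 2.3.3 and scipy 1.17.1. CPM are relative to cluster reads, not library size. Wilson intervals and exact binomial intervals of folds have 95% confidence. The scripts were tested on simulated data. Named genes are the 12 highest members, the 5 highest and 5 lowest enzyme ratios, paralogs, members without clusters, RPL5, RPL11, the stalk proteins and further well-known members; the highest ratios with reads in both libraries and examples of regions were chosen after the values were seen. The members and lists were chosen with earlier results of these data known. A few genes of these lists are not reported here.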

Additional observations from a re-analysis of the deposited data

How the results depend on the processing

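Of the counts and shares computed with other settings, 75 stayed within 1.5 times the reported count or within the counting interval of the reported share. At a conversion threshold of 0.75 events per read, the members that met the target criteria fell to 37, 42, 38, 13 and 24 in the order of libraries used above. With at least 20 reads in place of CPM they numbered 13 with RNase T1 0.25/0.25 U/µL. Without clusters that overlap another gene, members held 1.28%, 1.19% and 1.57% of cluster reads in the RNase I libraries. Over reads of clusters on protein-coding exons they held 1.59%, 1.47% and 2.00% with RNase I and 0.730% and 1.21% with RNase T1. Clusters were also placed by all annotated transcripts with the 3′UTR before the coding sequence. Members with most reads in the coding sequence then numbered 35, 31, 36, 20 and 19 in the same order of libraries. The log2 ratios were also centred on the median of all protein-coding genes, 0.09 in the electroeluted pair and 0.37 in the pair from crushed gel. This gave 54 of 74 and 26 of 67 members at least 2-fold higher with RNase I. In the pair from crushed gel, 2 were then higher with RNase T1. The shares of all protein-coding genes were not computed for the target counts and fold counts at these other settings, so these counts stand without a background. The placement of clusters by midpoint in the ratios by region, and the list of TOP mRNAs without EEF2 and PABPC1, were added after seeing the data. Placement by midpoint turned the 3′UTR ratio of members in the pair from crushed gel from 0.817 to 1.12. The causes were not tested. No paired analysis was possible because there was 1 library per condition. Depth limits the RNase T1 0.25/0.25 U/µL library most, where a level of 10 CPM is less than 2 reads.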
